A study of Mus musculus with 4 samples.

Results

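The genes described here build the T-tubule of the heart muscle cell and carry calcium across its surface. They are 10 genes named by symbol, and all 10 were found once among the 54752 gene rows of the deposited count table. They comprise the junctophilins Jph1 and Jph2, the membrane-shaping genes Bin1 and Cav3, the L-type calcium channel subunits Cacna1c, Cacnb2 and Cacna2d1, the T-type calcium channel pores Cacna1g and Cacna1h, and the sodium-calcium exchanger Slc8a1. The series sequenced RNA from mouse hearts at postnatal day 14 in 2 libraries labelled Carm1 mutant and 2 libraries labelled wild type. Carm1 encodes a protein arginine methyltransferase, and the study asks, by its title, about this enzyme in the maturing heart. The labels used here name no allele, Cre driver, strain or sex. They also do not say that the replicates are different animals, and the p-values cover the spread of these 4 libraries, which may be technical.

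T-tubules are invaginations of the surface membrane that bring L-type calcium channels next to the ryanodine receptors of the sarcoplasmic reticulum. In rodents they are formed mostly after birth, and the close contact of the membranes, the dyad, lets a small calcium entry release the store. The sodium-calcium exchanger removes the calcium that entered, while T-type channels are characteristic of the fetal ventricle and of adult pacemaker tissue.

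Libraries held 22217442 and 11677604 counts for Carm1 mutant replicates 1 and 2, and 21719161 and 20778420 counts for wild type replicates 1 and 2. All 12 cardiomyocyte markers had counts in every library, and their summed level was 48282 and 51496 CPM, the counts scaled to a common library size, in the Carm1 mutant libraries against 94097 and 79804 CPM in the wild-type libraries. All CPM values were normalized by TMM. Carm1 itself had 35.8 and 31.8 CPM in the Carm1 mutant libraries against 45.9 and 52.3 CPM in wild type (log2 fold change −0.54, SE 0.19, edgeR FDR 0.114). It was not called, and gene-level counts cannot tell a shortened mRNA from a full one. Xist had 8116 and 3921 counts in the Carm1 mutant libraries against 12 and 15 in wild type, and 4 Y-linked genes together had 7 and 0 counts against 1769 and 2236. Genotype and sex therefore cannot be told apart in any difference below. Wild type replicate 1 stood apart in its trend with transcript length: across genes its deviation from the mean of all libraries had a Spearman rho of −0.34 with length, against 0.20, −0.003 and 0.27 in Carm1 mutant 1, Carm1 mutant 2 and wild type 2.

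All 10 genes passed the filter on low counts. By edgeR's quasi-likelihood test at a false discovery rate (FDR) of 0.05 over 15283 genes, 2 of the 10 fell in the Carm1 mutant hearts, Jph1 and Jph2, and 1 rose, Bin1, while 7 did not pass. Of all tested genes 7.37% were called, 4.58% lower and 2.79% higher. The median log2 fold change of the 10 genes was −0.62, beside 0.02 over all tested genes. Scaled by library totals alone, 1189 genes were higher and 206 lower, against 426 higher and 700 lower with TMM, and 1 of the 10, Bin1, was called. Without regard to multiple testing, 7 of the 10 had an edgeR p under 0.05, as had 27.8% of all genes. The limma-voom fit called the same 3 of the 10 (7.38% of all genes). In 9 of the 10 every Carm1 mutant library lay on the same side of both wild-type libraries, a pattern shown by 59% of all tested genes, and Cacna1c was the exception. The 3 calls were lost without either Carm1 mutant library and stood without either wild-type library. A fit without 1 library takes its error from the pair that is left whole. Over these fits the log2 fold change ran from −1.25 to −1.10 for Jph1, −1.22 to −0.97 for Jph2 and 0.75 to 0.96 for Bin1. Without Carm1 mutant replicate 1 only Cacna1h was called (1 of 10, with 2.67% of all genes called). Without Carm1 mutant replicate 2 edgeR called 0 of 10, with 2.39% of all genes called, and 5 of the 10 had an unadjusted p under 0.05. Without wild type replicate 1 there were 7 calls (14.3% of all genes called) and without wild type replicate 2 there were 8 (35.5% of all genes called).

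**Figure D1:**
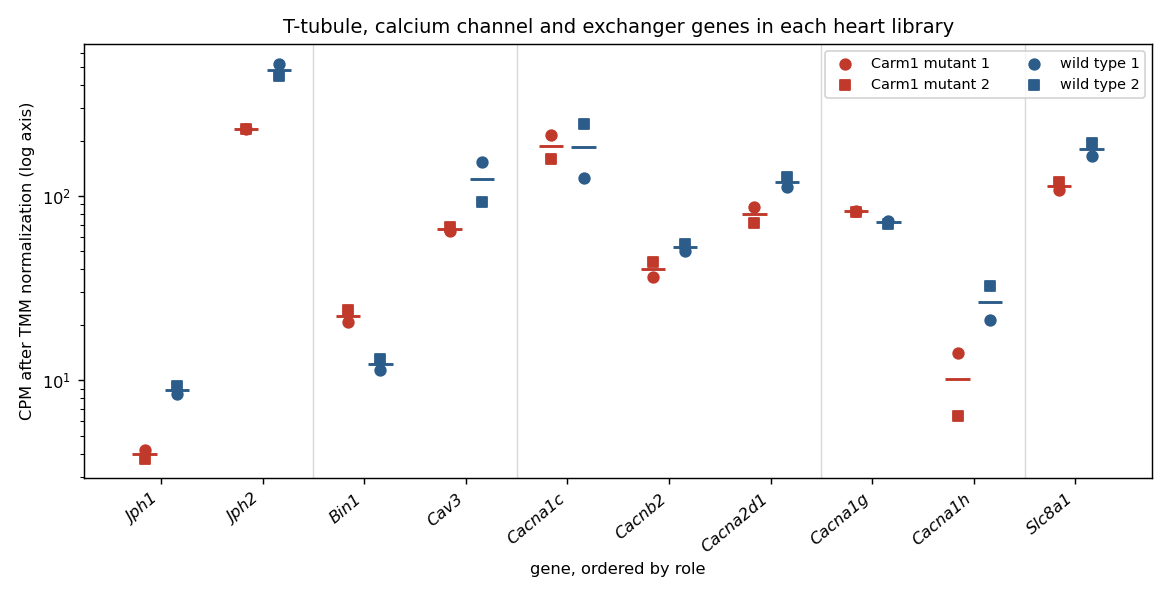
CPM after TMM normalization on a log axis for the 10 genes in order of role, with Carm1 mutant libraries in red left of wild-type libraries in blue; circles are replicate 1, squares replicate 2 and bars the group means. Jph1 and Jph2 lie lower and Bin1 higher in both Carm1 mutant libraries, and the Cacna1c libraries interleave.

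The junctophilins span the gap between the T-tubule and the sarcoplasmic reticulum and hold the dyad together. Jph2 (ENSMUSG00000017817, GRCm38 chromosome 2, 163336242 to 163397993, minus strand) is the main form in heart. It had 229.9 and 231.4 CPM in the Carm1 mutant libraries against 522 and 447 CPM in wild type. The Carm1 mutant libraries were nearly equal, and both lay below the lower wild-type library. The log2 fold change was −1.07 (SE 0.21, edgeR FDR 0.0278), which puts the gene at 47.6% of its wild-type level with a 95% interval of 33.9% to 66.8%. Jph1 (ENSMUSG00000042686, chromosome 1, 16964560 to 17097889, minus strand), the form typical of skeletal muscle, was scarce, with 51 to 105 counts in the Carm1 mutant libraries and 148 to 183 in wild type. Its levels were 4.19 and 3.76 CPM in the Carm1 mutant libraries against 8.46 and 9.35 CPM in wild type (log2 fold change −1.16, SE 0.24, edgeR FDR 0.0301). Jph1 was thus at 44.8% of wild type, with a 95% interval of 30.7% to 65.5%, and its groups did not overlap. The summed level of 14 skeletal muscle fibre markers, of which Myh4, Myh1 and Tnnc2 had no count in any library, was 802 and 809 CPM in the Carm1 mutant libraries against 2158 and 1291 CPM in wild type. Most of that sum was Ckm, picked once its values were known, with 790 and 797 CPM in the Carm1 mutant libraries against 2143 and 1281 CPM in wild type. Ckm was not called (edgeR FDR 0.0589). The lower sum thus follows Ckm and does not describe the other markers as a group. By edgeR 0 of the 7 markers that could be tested were called (2 with an unadjusted p under 0.05). Of these 7, 4 had a positive log2 fold change, and their median was 0.37. The 12 cardiomyocyte markers had a median log2 fold change of −0.73, and 1 of them was positive. The part of skeletal muscle fibres in the fall of Jph1, and that of cardiomyocytes in the falls of Jph1 and Jph2, was not tested. Both calls were lost without Carm1 mutant replicate 1 (edgeR FDR 0.142 for Jph1 and 0.350 for Jph2) and without Carm1 mutant replicate 2 (0.205 and 0.321), while the fitted changes stayed between −0.97 and −1.25. Scaled by library totals alone, which put the median of all genes at 0.41, the log2 fold changes were −0.77 for Jph1 and −0.67 for Jph2 and neither was called.

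Bin1 and Cav3 shape the T-tubule membrane; Bin1 was called and Cav3 was not. Bin1 (ENSMUSG00000024381, chromosome 18, 32377230 to 32435737, plus strand) encodes a BAR domain protein that bends the membrane and helps bring L-type channels to it. It had 20.7 and 23.9 CPM in the Carm1 mutant libraries against 11.4 and 13.1 CPM in wild type, so both Carm1 mutant libraries were the higher ones. Bin1 rose, with a log2 fold change of 0.87 (SE 0.20, edgeR FDR 0.0415), or 182% of the wild-type level with a 95% interval of 132% to 251%. Bin1 is made in many cell types, so its rise was set beside markers of other cells. The summed level of 10 fibroblast markers (1 of 10 called higher, Postn) was 5878 and 6262 CPM in the Carm1 mutant libraries against 3476 and 3987 CPM in wild type, and that of 10 proliferation markers (9 of 10 called higher) 134 and 145 CPM against 28.9 and 39.8 CPM. The summed level of 10 endothelial markers (1 of 10 called higher, Cldn5) was 2605 and 2292 CPM in the Carm1 mutant libraries against 1870 and 2133 CPM in wild type. Their part in the difference was not tested, and in a bulk sample more cells of a type and more RNA per cell cannot be told apart, nor fewer cells from less RNA. The call of Bin1 was lost without Carm1 mutant replicate 1 (edgeR FDR 0.185) and without Carm1 mutant replicate 2 (0.368).

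Cav3 (ENSMUSG00000062694, chromosome 6, 112459505 to 112472872, plus strand) encodes the caveolin of muscle cells, found in caveolae and in developing T-tubules. It had 64.7 and 67.9 CPM in the Carm1 mutant libraries against 153 and 93.0 CPM in wild type. The Carm1 mutant libraries lay close together and below both wild-type libraries, which differed from each other 1.65-fold. The log2 fold change was −0.89 (SE 0.26, edgeR FDR 0.0756), with a 95% interval of 35.6% to 81.7% of the wild-type level, so the gene was not called. The value depended on the wild-type library used: it was −0.50 without wild type replicate 1 (edgeR FDR 0.0459) and −1.24 without wild type replicate 2 (edgeR FDR 1.2e-04). Cav3 was not called without Carm1 mutant replicate 1 (−0.86, edgeR FDR 0.416) or replicate 2 (−0.93, edgeR FDR 0.335). At 1157 bases, the Cav3 transcript is the shortest of the 10, and wild type replicate 1 was the library with relatively more counts on short transcripts; the part of length in this value was not tested. Fitting with offsets for length and GC gave −0.78 (edgeR FDR 0.0148).

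Proximal promoters were taken from RefSeq (GRCm38.p6) for 6 of the 10 genes and are shown for 4 of them. That Bin1 is not among the 6 does not mean that RefSeq lacks a promoter for it. Of the 4 shown, Jph2 was called lower, Cav3 and Slc8a1 had intervals below the wild-type level without being called, and Cacna1c had overlapping groups. Each runs from 250 bases before an annotated start to 50 after it, on the strand of the gene; Jph2 (chr2:163397944-163398243, minus, the more upstream of its 2 listed starts), Cav3 (chr6:112459255-112459554, plus), Slc8a1 (chr17:81738338-81738637, minus) and Cacna1c (chr6:119196360-119196659, minus, the most upstream of its 3 listed starts). Capitals mark every match on either strand to any of 7 motifs. The first was AGATAA, bound by GATA factors. The E-box was CANNTG, bound by helix-loop-helix proteins. The TEAD element was CATTCC, also called M-CAT. The half-site of oestrogen-related receptors (ERR) was AAGGTCA in this search. The GC box was GGGCGG, known from Sp1 binding. The TATA box was TATAAA here, and MEF2 sites were searched by their consensus. Matches of different motifs may overlap.
Jph2: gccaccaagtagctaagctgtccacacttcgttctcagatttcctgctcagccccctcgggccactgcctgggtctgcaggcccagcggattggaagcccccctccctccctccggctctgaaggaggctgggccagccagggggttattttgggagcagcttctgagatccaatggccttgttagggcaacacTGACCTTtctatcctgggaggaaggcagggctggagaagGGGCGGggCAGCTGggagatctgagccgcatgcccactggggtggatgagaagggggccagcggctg
Cav3: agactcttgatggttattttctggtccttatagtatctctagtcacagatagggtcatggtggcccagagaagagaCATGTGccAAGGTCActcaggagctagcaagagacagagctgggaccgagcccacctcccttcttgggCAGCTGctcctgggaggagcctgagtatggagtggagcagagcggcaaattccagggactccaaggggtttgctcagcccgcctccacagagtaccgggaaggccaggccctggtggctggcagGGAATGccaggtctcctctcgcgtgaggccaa
Slc8a1: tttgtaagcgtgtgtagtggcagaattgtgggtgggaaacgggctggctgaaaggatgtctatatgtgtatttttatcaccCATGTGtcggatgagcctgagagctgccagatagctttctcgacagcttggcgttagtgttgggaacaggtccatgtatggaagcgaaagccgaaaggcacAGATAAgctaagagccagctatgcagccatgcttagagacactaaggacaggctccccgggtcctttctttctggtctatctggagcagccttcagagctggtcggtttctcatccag
Cacna1c: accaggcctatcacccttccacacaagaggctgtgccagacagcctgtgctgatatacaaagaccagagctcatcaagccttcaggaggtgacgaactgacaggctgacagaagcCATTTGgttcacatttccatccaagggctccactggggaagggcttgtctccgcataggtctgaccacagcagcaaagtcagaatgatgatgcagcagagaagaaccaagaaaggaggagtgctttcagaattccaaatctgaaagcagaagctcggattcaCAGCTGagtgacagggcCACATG

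The ERR half-site, bound by nuclear receptors that drive mitochondrial genes in heart, was in the windows of Jph2 and Cav3, as was at least 1 match to the E-box. It began at position −56 in Jph2, on the opposite strand, and at −166 in Cav3, counted from the annotated start. Of 32851 promoters of the same length, 4.72% held this half-site and 72.3% held an E-box. The GC box of Jph2 lay at −17, and 35.7% of all promoters held one. Cav3 also had an M-CAT match, the element of TEAD factors, at position 18, as did 14.7% of all promoters. The Slc8a1 window held a GATA match at −68, the element of GATA4 in heart, which 11.2% of all promoters held. The Cacna1c window held 3 E-box matches and none of the other motifs. Cacna2d1 and Cacnb2 also had listed promoters, which are not shown. The interval of Cacna2d1 too lay below the wild-type level without a call. Its window held 7 GC box matches and none of the other motifs, and no Cacnb2 window held an ERR half-site. No match to the MEF2 consensus, which 3.19% of all promoters held, or to the TATA box, which 13.6% held, was present in the 4 windows shown. A match describes letters in a window and says nothing of binding.

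The L-type channel carries the calcium current that starts contraction. Its pore, Cacna1c (ENSMUSG00000051331, chromosome 6, 118587240 to 119196418, minus strand), had 215 and 160 CPM in the Carm1 mutant libraries against 124 and 246 CPM in wild type. Both Carm1 mutant libraries lay between the wild-type libraries, so the groups overlapped. The log2 fold change was 0.01 (SE 0.33, edgeR FDR 0.982), and its 95% interval, 59.6% to 171% of the wild-type level, leaves room for a change of either sign. The sign turned with the library left out: the log2 fold change was −0.41 without wild type replicate 1, −0.22 without Carm1 mutant replicate 1, 0.21 without Carm1 mutant replicate 2 and 0.55 without wild type replicate 2, and the last was called (edgeR FDR 0.0403). Its longest transcript has 13162 bases. Wild type replicate 1 had 0.506 times the Cacna1c level of wild type replicate 2, and across genes its counts were relatively sparse on long transcripts. The same ratio was 0.846 for Slc8a1, whose longest transcript has 18464 bases, and 1.04 for Cacna1g, with 8383 bases, and the part of length in the Cacna1c gap was not tested. With offsets for length and GC the log2 fold change was −0.19. Dcp1b lies on the other strand over part of Cacna1c, shares no exon base with it and had 112 to 322 counts, far below the 2167 to 5383 of Cacna1c.

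The auxiliary subunits carry the pore to the membrane and set its gating. Cacna2d1 (ENSMUSG00000040118, chromosome 5, 15934691 to 16374511, plus strand), the alpha2delta subunit, had 87.7 and 71.7 CPM in the Carm1 mutant libraries against 111 and 126 CPM in wild type. The groups did not overlap, but the gene was not called (log2 fold change −0.57, SE 0.20, edgeR FDR 0.117). Cacna2d1 was called without wild type replicate 1 (−0.67, edgeR FDR 0.0201) and without wild type replicate 2 (−0.52, edgeR FDR 0.0296), but not without Carm1 mutant replicate 1 (−0.73, edgeR FDR 0.533) or replicate 2 (−0.45, edgeR FDR 0.724). Cacnb2 (ENSMUSG00000057914, chromosome 2, 14603088 to 14987908, plus strand), the main cardiac beta subunit, had 36.5 and 43.7 CPM in the Carm1 mutant libraries against 50.3 and 55.0 CPM in wild type. Its log2 fold change was −0.39 (SE 0.19, edgeR FDR 0.225), with a 95% interval of 55.9% to 103% of the wild-type level. Cacnb2 passed the test under none of the 21 alternatives tried.

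T-type channels open at lower voltages than L-type channels. The 2 pores differed in their values. Cacna1g (ENSMUSG00000020866, chromosome 11, 94408391 to 94474198, minus strand) had 83.2 and 81.9 CPM in the Carm1 mutant libraries against 73.4 and 70.8 CPM in wild type. The groups did not overlap, but the difference was about as large as its fitted error, at a log2 fold change of 0.19 (SE 0.18, edgeR FDR 0.523), and the 95% interval was 85.6% to 153% of the wild-type level. Cacna1h (ENSMUSG00000024112, chromosome 17, 25374285 to 25433783, minus strand) had 14.04 and 6.41 CPM in the Carm1 mutant libraries against 21.1 and 32.3 CPM in wild type. Its Carm1 mutant libraries differed from each other 2.19-fold and both lay below wild type. The log2 fold change of −1.36 was the largest of the 10 genes but had a wide error (SE 0.37, edgeR FDR 0.0622), and the gene was not called. Leaving out a library gave −2.06 without Carm1 mutant replicate 1 (edgeR FDR 3.8e-04), −0.94 without Carm1 mutant replicate 2 (0.25), −1.63 without wild type replicate 1 (0.00517) and −1.04 without wild type replicate 2 (0.024). Tpsg1, which overlaps 158 exon bases of Cacna1h on the other strand, had at most 2 counts in a library.

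T-type channels also belong to pacemaker cells, and the summed level of 11 pacemaker and conduction markers (1 of 9 tested called, lower) was 152.1 and 152.2 CPM in the Carm1 mutant libraries against 139 and 146 CPM in wild type. Among those markers Hcn4, the pacemaker channel, fell to a mean of 4.14 CPM in Carm1 mutant hearts, against 9.68 CPM in wild type (edgeR FDR 0.0252). The summed level of 10 atrial markers (3 of 9 tested called) was 482 and 477 CPM in the Carm1 mutant libraries against 693 and 623 CPM in wild type. Of these, Myl7 and Myl4 fell and Nppa rose (log2 fold change 1.07, edgeR FDR 0.0447). Wild type replicate 2 stood apart in Bmp10, an atrial growth factor picked once its values were known, with 690 counts there against 2 and 2 in the Carm1 mutant libraries and 0 in wild type replicate 1. The summed level of the atrial markers was nonetheless lower in that library than in wild type replicate 1 (623 against 693 CPM). Wild type replicate 2 had the highest Cacna1h level. Without it, the Cacna1h difference was −1.04, as given above, and that of Cacna1g 0.13. The part of pacemaker and atrial cells in the values of the T-type genes was not tested.

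Slc8a1 (ENSMUSG00000054640, chromosome 17, 81373105 to 81738377, minus strand) encodes the cardiac sodium-calcium exchanger. It had 108 and 119 CPM in the Carm1 mutant libraries against 164 and 194 CPM in wild type, with no overlap. The log2 fold change was −0.66 (SE 0.20, edgeR FDR 0.0836), or 63.1% of the wild-type level with a 95% interval of 45.7% to 87.3%, and the gene was not called. Slc8a1 was called without wild type replicate 1 (−0.79, edgeR FDR 0.00538) and without wild type replicate 2 (−0.58, edgeR FDR 0.0116), but not without Carm1 mutant replicate 1 (−0.60, edgeR FDR 0.669) or replicate 2 (−0.74, edgeR FDR 0.509). The DESeq2 Wald test, which called 11.6% of its genes, also called Slc8a1 (adjusted p 0.0223), Cav3 (0.0114) and Cacna1h (0.0031), beside the 3 genes called by edgeR.

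**Figure D2:**
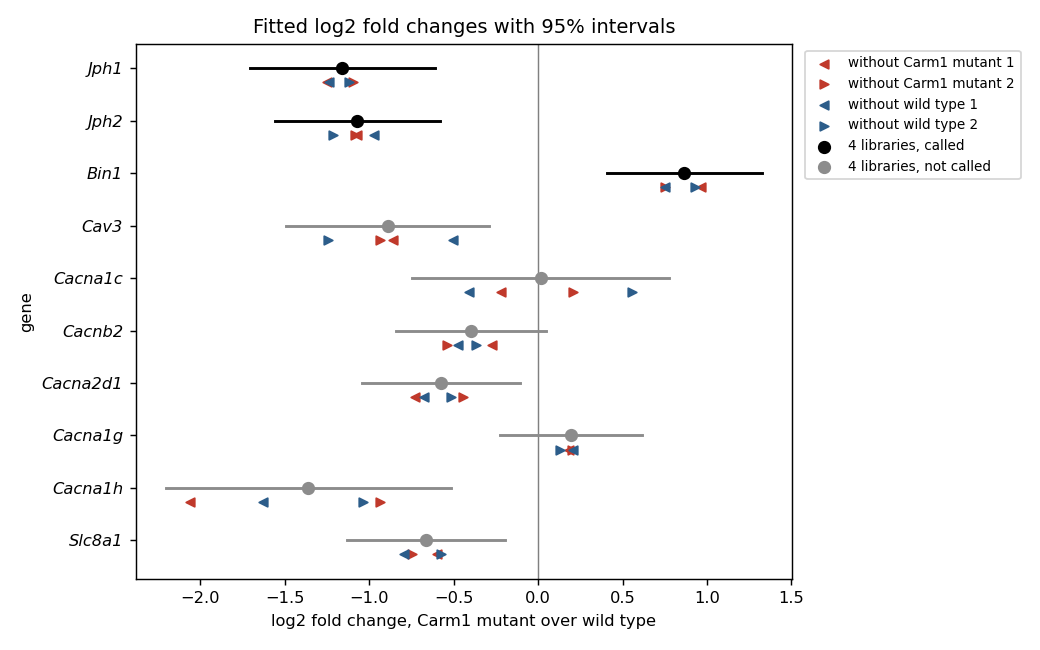
Log2 fold change, Carm1 mutant over wild type, for each gene with its 95% interval from the edgeR fit to 4 libraries (black, called at an FDR of 0.05; grey, not called). Triangles below each line are the fits without 1 library; those of Cacna1c fall on both sides of 0 and those of Jph1 and Jph2 stay near −1.

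Levels scaled by exon length and to a common library total (TPM) were used to set the genes against each other within a group. Jph2 and Cav3 were far above the others, at 125 ± 3.8 and 132 ± 7.9 TPM in Carm1 mutant hearts, and at 191 ± 11.5 and 175 ± 31.9 TPM in wild-type hearts (SD, n = 2 each). Within each group the ranges of these 2 genes overlapped. Below them came, in Carm1 mutant hearts, Cacna1c (20.3 ± 3.7 TPM), Cacna1g (18.7 ± 0.28), Cacna2d1 (14.7 ± 1.7), Slc8a1 (13.9 ± 1.3), Bin1 (12.5 ± 1.6), Cacnb2 (6.99 ± 1.1), Cacna1h (2.39 ± 1.2) and Jph1 (1.83 ± 0.093). Of these neighbours, Cacna1c and Cacna1g, Cacna2d1 and Slc8a1, Slc8a1 and Bin1, and Cacna1h and Jph1 overlapped. The order in wild-type hearts was Cacna2d1 (16.3 ± 4.2 TPM), Slc8a1 (16.3 ± 4.6), Cacna1c (15.4 ± 9.4), Cacna1g (12.0 ± 1.7), Cacnb2 (6.78 ± 1.6), Bin1 (5.07 ± 1.3), Cacna1h (4.75 ± 2.2) and Jph1 (3.04 ± 0.72). There the neighbours overlapped throughout except Cacna1g and Cacnb2. Bin1 had rank 7 of the 10 genes in Carm1 mutant hearts and rank 8 in wild type, and Jph1 was last in both. These levels divide by all exon bases of a gene, and the order depended on that choice. With the longest transcript as the length, Cacnb2 averaged 15.9 TPM in Carm1 mutant hearts and 15.6 TPM in wild-type hearts, which placed it at rank 7 and rank 5. It then stood above Cacna1g (12.7 TPM) in wild type, the reverse of the order above. Slc8a1 moved down to rank 8 in Carm1 mutant hearts and rank 6 in wild type.

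**Figure D3:**
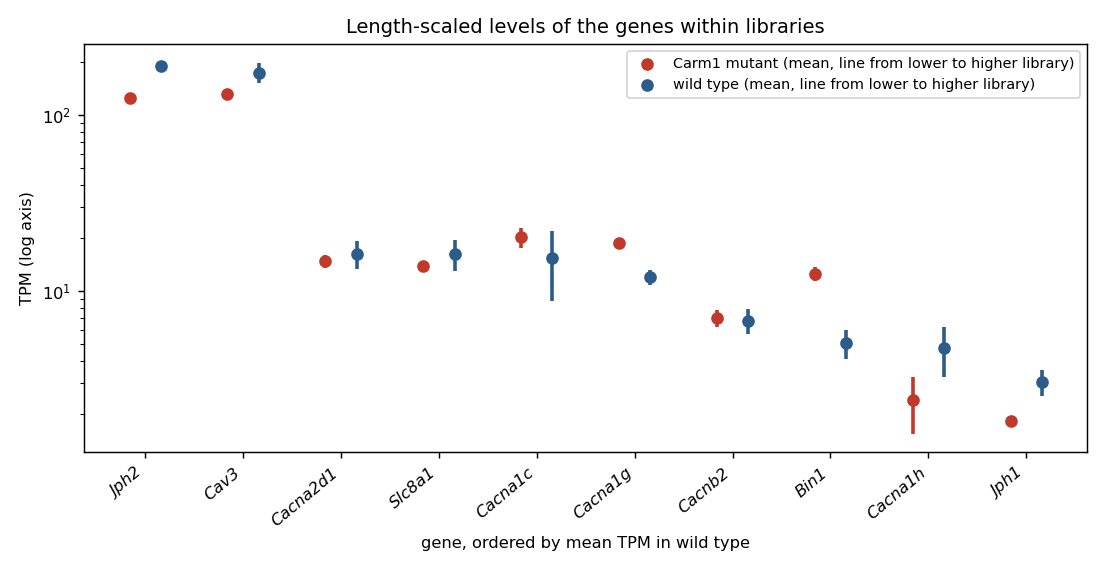
TPM on a log axis for the 10 genes, ordered by their mean in wild type, with Carm1 mutant hearts in red left of wild-type hearts in blue; points are means of 2 libraries and lines run between them. Jph2 and Cav3 stand far above the other genes in both groups.

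Shares within a library do not depend on how libraries are scaled to each other. An exact two-sided permutation test of 2 libraries against 2 cannot give a p below 0.333, and 7 such measures were computed. Cacna1h made up 14.9% and 7.51% of the T-type pores in the Carm1 mutant libraries, against 23.0% and 32.2% in wild type (exact permutation p = 0.333). Cacna1g thus made up most of the T-type transcript in every library. The T-type pores together made up 48.8% and 53.7% of the sum with Cacna1c in the Carm1 mutant libraries, against 61.6% and 47.0% in wild type. Those groups overlapped (exact permutation p = 1), and the difference turned positive without wild type replicate 1. Jph1 made up 1.53% and 1.36% of the junctophilins in the Carm1 mutant libraries, against 1.36% and 1.75% in wild type, and these groups overlapped as well (exact permutation p = 1).

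Among beta subunits, Cacnb2 made up 19.0% and 19.3% of the 4 genes in the Carm1 mutant libraries, against 39.5% and 35.9% in wild type (exact permutation p = 0.333). The groups did not overlap, and the means differed by −18.5 percentage points. The size of the share depends on the length used: Cacnb2 has 13228 exon bases, but its longest transcript has 5030. Before length scaling Cacnb2 had 914 and 594 counts in the Carm1 mutant libraries and 880 and 1076 in wild type. Cacnb3 had 825 and 553 against 258 and 363, so Cacnb2 had more counts than Cacnb3 in every library. Cacnb3, a beta subunit best known from neurons and smooth muscle, rose: it had 32.9 and 40.7 CPM in the Carm1 mutant libraries against 14.8 and 18.5 CPM in wild type (log2 fold change 1.14, SE 0.21, edgeR FDR 0.0245). Without Carm1 mutant replicate 2 that gene was not called (0.97, edgeR FDR 0.177). The summed level of 11 smooth muscle and pericyte markers was 3003 and 3104 CPM in the Carm1 mutant libraries against 2525 and 3028 CPM in wild type. By edgeR 0 of 11 were called (1 with an unadjusted p under 0.05). The sum of 12 neuron and glia markers was 36.01 and 34.8 CPM against 36.1 and 27.9 CPM, with 1 of 8 tested called, Tubb3, which was higher. Of these 8, 7 had a positive log2 fold change, their median was 0.59, and 5 had an unadjusted edgeR p under 0.05. The part of smooth muscle, pericytes, neurons and glia in the rise of Cacnb3 was not tested. Cacna2d1 made up 84.2% and 85.3% of the alpha2delta genes in the Carm1 mutant libraries, against 91.0% and 88.1% in wild type. Cacna1c made up 95.4% and 94.2% of its sum with Cacna1d, the L-type pore of pacemaker and atrial cells, against 96.1% and 96.8% in wild type. Neither pair of groups overlapped (exact permutation p = 0.333 for each). For every 100 length-scaled counts of Atp2a2, which encodes the pump that refills the calcium store, there were 1.51 and 1.70 of Slc8a1 in the Carm1 mutant libraries against 0.86 and 0.959 in wild type (exact permutation p = 0.333). Atp2a2 itself fell, with 2299 and 2267 CPM in the Carm1 mutant libraries against 6180 and 6552 CPM in wild type (edgeR FDR 0.0203).

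**Figure D4:**
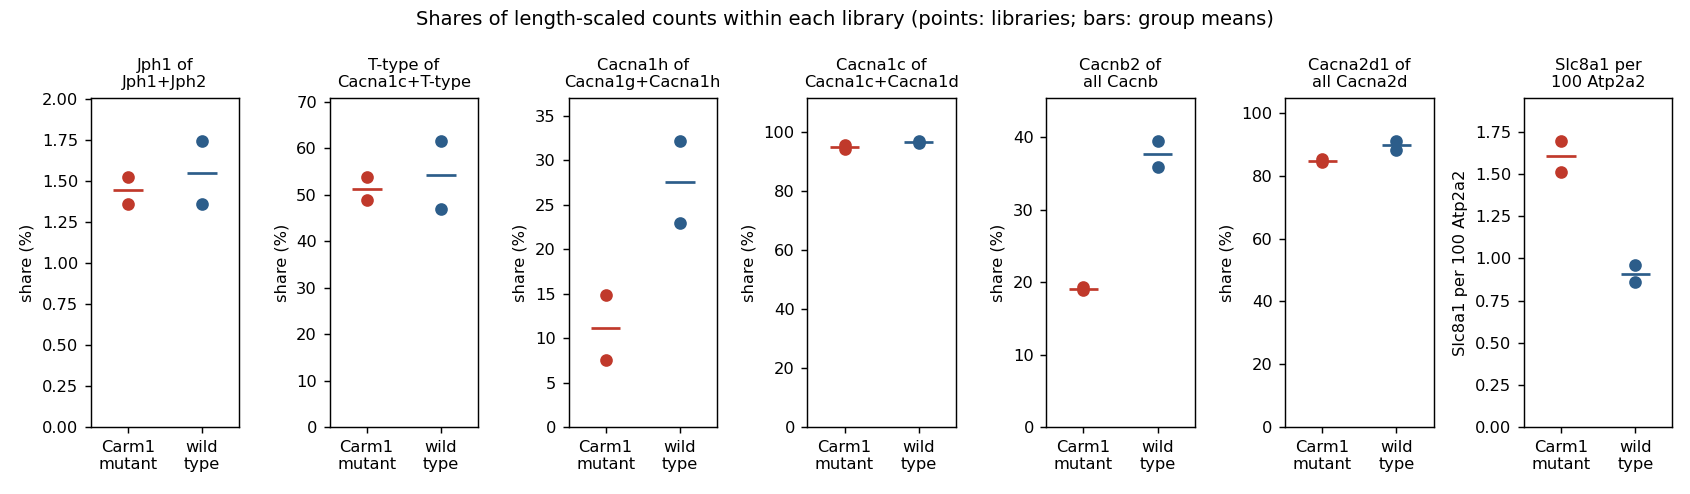
Shares in percent of length-scaled counts within each library, with Carm1 mutant libraries (red) left of wild-type libraries (blue) and bars at group means; the last panel gives Slc8a1 per 100 Atp2a2. The Cacnb2 share lies near 19% in both Carm1 mutant libraries and above 35% in both wild-type libraries.

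Other genes of these processes were counted in lists chosen with earlier results of these data known. Scaled by library totals alone, where the median of all genes was 0.41, the medians given below as −0.24, −0.02, 0.03, 0.40 and −0.76 became 0.16, 0.36, 0.44, 0.79 and −0.39, so that of the 3 negative medians only the last kept its sign. Of 27 measured genes of T-tubule, caveolar and dyad structure, 3 fell, 0 rose and 24 did not pass (11.1% called; median log2 fold change −0.24). Cmya5, the dyad organizer myospryn, fell to 91.8 and 93.1 CPM in the Carm1 mutant libraries, against 276 and 295 CPM in wild type (log2 fold change −1.63, SE 0.20, edgeR FDR 0.00858). Cavin4, a caveolar coat protein of muscle, fell to 28.6 and 41.5 CPM, against 111 and 78.0 CPM in wild type (−1.44, SE 0.26, edgeR FDR 0.0244). The third, Tmem38a, a potassium channel of the sarcoplasmic reticulum, fell by 1.21 on the log2 scale. With library totals alone there were 4 higher and 3 lower calls in this list. Without Carm1 mutant replicate 1 none of the 3 was called, and the edgeR FDR of Cmya5 was then 0.0512. Without Carm1 mutant replicate 2 Tmem38a was not called (edgeR FDR 0.245). Tcap, the T-tubule and Z-disc protein telethonin, averaged 254 CPM in Carm1 mutant hearts and 538 CPM in wild-type hearts and did not pass (edgeR FDR 0.0761). It was picked once its values were known.

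Of the 10 measured other voltage-gated calcium channel subunits, 1 rose, Cacnb3, 0 fell and 9 did not pass (median 0.40). Cacna1f, Cacng2, Cacng5 and Cacng8 had no count in any library. Of 21 channel regulators 4 fell, 0 rose and 17 did not pass (19% called; median 0.03). They were Fgf13, an intracellular fibroblast growth factor that modulates sodium and calcium channels (−1.32, edgeR FDR 0.0115), the kinase anchors Akap7 (−1.02, edgeR FDR 0.0244) and Akap6 (−0.99, edgeR FDR 0.0398), and Adrb1, the main beta-adrenergic receptor of heart muscle (−1.03, edgeR FDR 0.0274). Rrad, a small GTPase that restrains the L-type channel, averaged 77.8 CPM in Carm1 mutant hearts and 80.5 CPM in wild-type hearts (edgeR FDR 0.91), and it was picked once its values were known. Of 22 genes of other plasma membrane calcium and sodium transport, 2 fell, among them the sodium pump subunit Atp1b1 (−1.38, edgeR FDR 0.0134), and 20 did not pass (9.09% called; median −0.02). None of the 4 regulators was called without Carm1 mutant replicate 1 or without replicate 2 (edgeR FDR 0.0722 and 0.0725 for Fgf13, the lowest of the 4 in each case), and Atp1b1 was called neither without Carm1 mutant replicate 1 (edgeR FDR 0.134) nor without replicate 2 (edgeR FDR 0.143). With library totals alone the regulators had 2 higher and 1 lower calls, Fgf13 among them, and the transport genes 1 of each, with Atp1b1 the lower one. Slc8a3, a further exchanger gene, was below the filter on low counts.

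The list of 15 measured sarcoplasmic reticulum partners, not all of them genes of the dyad, had 6 lower, 0 higher and 9 not passing (40% called, with a median of −0.76). Hrc, Atp2a2, Casq2, Srl, Tmem38a and Pln fell, with log2 fold changes of −1.82, −1.48, −1.24, −1.22, −1.21 and −0.90. Ryr2, the release channel opposite the L-type channel, averaged 498 CPM in Carm1 mutant hearts and 789 CPM in wild-type hearts and did not pass (log2 fold change −0.66, SE 0.25, edgeR FDR 0.134); it was picked once its values were known. Trdn, triadin, which anchors calsequestrin to the release channel, did not pass either (−0.75, edgeR FDR 0.0589) and was picked in the same way. The median of the cardiomyocyte markers was −0.73, with 1 of 12 lower, Pln, and 1 higher, Nppa. The median of the reticulum list was −0.93 and −0.78 without Carm1 mutant replicate 1 and replicate 2. It was −0.88 and −0.79 without wild type replicate 1 and replicate 2. Fewer of its genes were called without either Carm1 mutant library and more without either wild-type library, as among all tested genes.

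**Figure D5:**
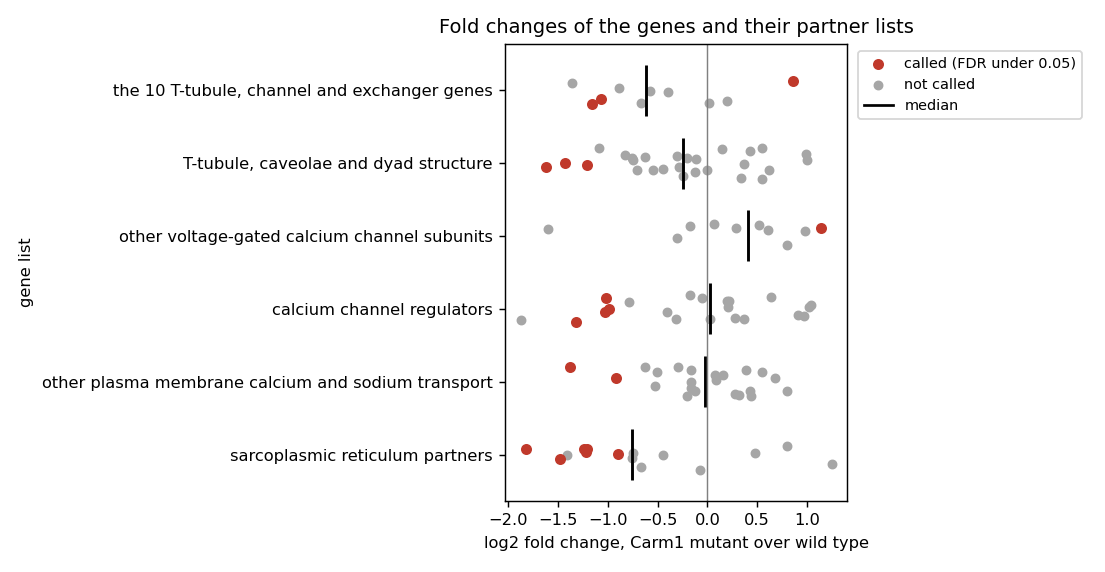
Log2 fold change, Carm1 mutant over wild type, for each measured gene of the 10 described genes and of 5 partner lists; red points passed an edgeR FDR of 0.05, grey points did not, and black bars are medians. The medians are −0.62 for the 10 genes, −0.76 for sarcoplasmic reticulum partners and 0.40 for the other channel subunits.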

How the data were processed

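RNA from mouse heart was sequenced in 4 libraries, prepared by BGI from total RNA per the labels. The tools, per the submitters' processing notes, were FastQC and HISAT2, with the mm10 build. No source used here gives the counting program, its annotation and strand setting, or any version. Raw counts per gene were deposited by the authors and were used unchanged. Columns were matched to samples by title. Symbols, lengths and coordinates, counted from 1, are from GENCODE M21 (GRCm38), which named 54723 of 54752 rows; the 29 others held at most 0.00106% of a library.

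A count of 3 corresponded to 0.135 to 0.257 CPM, by library. Replicates differed beyond counting error (chi-square per degree of freedom 11.5 for Carm1 mutant, 51.1 for wild type). Genes were filtered with filterByExpr, normalized by TMM, then compared using edgeR 4.0.16 under R 4.3.3 (glmQLFit and glmQLFTest, genotype as the only term, 2 residual degrees of freedom, two-sided) with Benjamini-Hochberg adjustment over 15283 genes at 0.05. SE is the size of the log2 fold change divided by the square root of F, and ± is the SD of 2 libraries. TPM used union exon length. Shares were tested with exact permutation (SciPy 1.17.1). The fit was tested on simulated counts. It called 30.4% of genes given a log2 fold change of −1 and 57.1% of those given 1. At −2 and 2 it called 88.9% and 98%. These changes were given to 45, 46, 49 and 50 genes at −2, −1, 1 and 2, among 14931 tested. It also called 26 genes that had been given no change. False calls thus made up a larger share of its calls than the 0.05 set as the threshold. DESeq2 1.42.0 and limma-voom 3.58.1 were among the alternatives. The members, lists, motifs, tests and alternatives were chosen with earlier results of these data known. The text names all 10 members, Carm1, sex-linked genes and up to 6 called members of each partner list (or the 2 most abundant). From each marker list it names no more than 2 that were called, save the atrial list, where every called marker is named. Beyond these it names genes overlapping a member and listed genes without counts or below the filter (Slc8a3), which were picked once their values were known; any other gene is marked as picked once its values were known. The result for 1 called gene is not reported here.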

Additional observations from a re-analysis of the deposited data

How the results depend on the processing

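Every result is limited by having 2 libraries per group, and those of wild type were the less alike. Where a library is left out, its group's remaining sample is taken to vary as the other group does. Leaving out each library in turn gave 0 to 8 called members (0 to 6 lower, 0 to 2 higher) and 377 to 5679 called genes (156 to 3126 lower, 221 to 2553 higher). Under 21 alternatives Jph1, Jph2, Bin1, Cav3, Cacna1h, Cacnb2, Cacna2d1 and Slc8a1 kept their sign.

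With all genes given first and members second, DESeq2's Wald test had 1141 lower calls, and 6 members (5 lower). An FDR of 0.10 gave 2488 (1077 higher, 1411 lower) and 6 (5 lower), a log2 fold change threshold of 0.5 in glmTreat 226 (111 higher, 115 lower) and 0 (0 higher, 0 lower; 5 members at an unadjusted p under 0.05), and no low-count filter 2630 (1169 higher, 1461 lower) and 5 (4 lower). The correction for length and GC content gave 2797 (1190 higher, 1607 lower) and 7 (6 lower). Library totals alone gave 1189 higher and 206 lower calls and 1 member (0 lower). The causes were not tested.

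Cacna1c reversed to −0.0082 with DESeq2, −0.41 without wild type replicate 1, −0.22 without Carm1 mutant replicate 1, and −0.19 with the length and GC correction, without or with the replicate block; Cacna1g reversed to −0.15 with that correction and −0.12 with both. Without wild type replicate 2 Cacna1c was called at 0.55.

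The replicate numbers are not shown to pair libraries. Same-numbered libraries deviated oppositely (r = −0.25 across genes). The replicate block gave 1222 calls and 3 members, 0 of them higher, as Bin1 missed the threshold (FDR 0.0516) and Cacna1h passed (0.00264). The crossed replicate block, chosen after seeing the data, gave 4176 calls (2037 higher, 2139 lower) and 7 members (6 lower).

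Of the shares, differences ran from −0.302 to 0.0832 percentage points for Jph1, −10.3 to 4.25 for T-type pores, −21.0 to −11.8 for Cacna1h, −2.25 to −1.04 for Cacna1c, −20.4 to −16.7 for Cacnb2 and −6.26 to −3.38 for Cacna2d1 when each library was left out, and Slc8a1 per 100 Atp2a2 from 0.604 to 0.786. On raw counts with no length scaling that last difference was 2.15, against 0.69 as reported, and the Cacna1c share differed by −1.02, against −1.65; all 7 kept their direction with that setting and with the longest transcript. Jph1 was reversed without wild type replicate 2 and T-type pores without wild type replicate 1.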
